A study of Rattus norvegicus with 12 samples.

Results

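The comparison is between dorsal root ganglia of High Pain (HP) rats taken 3 days after spinal nerve ligation (SNL) and those of HP rats after a sham operation. Its members are the 3 arrays labelled as ligated HP and the 3 labelled as sham HP, 6 of the 12 arrays of the series, chosen by their titles alone. All 4 groups of the study were adult male Sprague Dawley rats, of either the HP or the Low Pain (LP) genetic sub-line, and the tissue was the ganglia at spinal levels L4 and L5. The ligated rats had both spinal nerves tied at these levels, and in the sham rats the operation spared the nerve. The labels give no time point for the sham groups, do not say how the sub-lines were made, and do not say whether an array holds 1 animal or a pool. The p-values given here thus rest on the scatter among these arrays alone, and that scatter could be technical.

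A dorsal root ganglion holds the cell bodies of sensory neurons, each wrapped by satellite glia, together with Schwann cells, vessels, connective tissue and resident macrophages. Tying a spinal nerve cuts the neurons off from the skin and muscle they serve. The cell bodies then shift from signalling towards regrowth, and macrophages and glia respond around them. The best-known genes of this response (Atf3, Jun, Gap43, Sprr1a, Gal, Npy and their like) and the ion channels of nociceptors are left aside here in favour of the pathways around them.

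Each array gave a linear signal intensity for every probe set, and 1 probe set stood for each of 10411 genes. Signals are given as deposited, group means ± SD with n = 3, and differences are SNL minus sham on the scale of log2(signal + 1) ± SE, which understates the change of dim genes. All 6 HP arrays had the same trimmed mean, 500.08 or 500.09. Correlations of log2 signals were 0.955 to 0.965 over the 6 pairs of arrays within a group and 0.932 to 0.947 over the 9 pairs between groups. The ratio of the 3' to the 5' control probe set of beta-actin, which rises as RNA degrades, was 1.847, 1.483 and 1.772 on the sham arrays and 1.237, 1.342 and 1.118 on the SNL arrays, so that it did not overlap between the groups, while that of Gapdh did (1.095 to 1.17 against 1.066 to 1.244). The skeletal muscle actin gene Acta1 was at 1232.7, 435.6 and 1015.7 on the sham arrays and 357.9, 389.2 and 314.4 on the SNL arrays, high on sham arrays 1 and 3. The part of RNA integrity and of muscle in the results was not tested, but calls were recomputed with that ratio in the model, and again without both of these sham arrays.

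Marker genes set the cell make-up beside the results. The summed signal of 13 sensory neuron markers was 67926, 72271 and 72158 on the sham arrays and 64248, 64924 and 60277 on the SNL arrays, with 4 of the 13 lower and none higher. Of the 13, 12 (all but Th) lay above the median signal of every HP array. That held for 6 of the 11 macrophage markers below, 3 of 22 of skeletal muscle and 2 of 4 of red blood cells. Of the fibroblast and meninges markers 8 of 8 did so, and of the adipocyte markers 0 of 5. Macrophage markers (11 measured, 8 higher, none lower) summed to 7060, 7866 and 6638 after sham and to 14310.2, 15906 and 15854 after SNL. Skeletal muscle markers (22 measured, 1 higher and 5 lower) summed to between 7728 and 9039 after sham and between 5731 and 6515 after SNL. Red blood cell markers (4 measured, 1 higher) summed to between 9104 and 10663 after sham and between 13784 and 15421 after SNL, and those of fibroblasts and meninges (8 measured, 5 higher) to between 24937 and 28244 and between 33188 and 39093. Of the 7 markers of myelinating Schwann cells and the 5 of adipocytes, none passed the test. The adipocyte sum was 594.6 to 630.3 after sham and 729.6 to 854.1 after SNL. Endothelial markers (8 measured, 3 higher) summed to between 2815 and 2940 after sham and between 3594 and 4034 after SNL. For T and NK cells (9 measured, 1 higher) the ranges were 1736 to 1979 and 2104 to 2266. For central nervous system glia (7 measured, 1 higher, median log2 difference -0.41) they were 1415 to 1553 and 2817 to 3216. The sum and the median of this list thus ran opposite ways. Only 1 of these 7 lay above the median signal of every HP array, and Aqp4, Slc1a2, Mog, Mobp, Olig1 and Aldh1l1 did not. Satellite glia markers (6 measured, 2 higher and 1 lower) summed to between 14168 and 17113 after sham and between 16823 and 17126 after SNL, with overlap. In a whole ganglion, fewer cells of a type and less RNA per cell cannot be told apart.

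**Figure D1:**
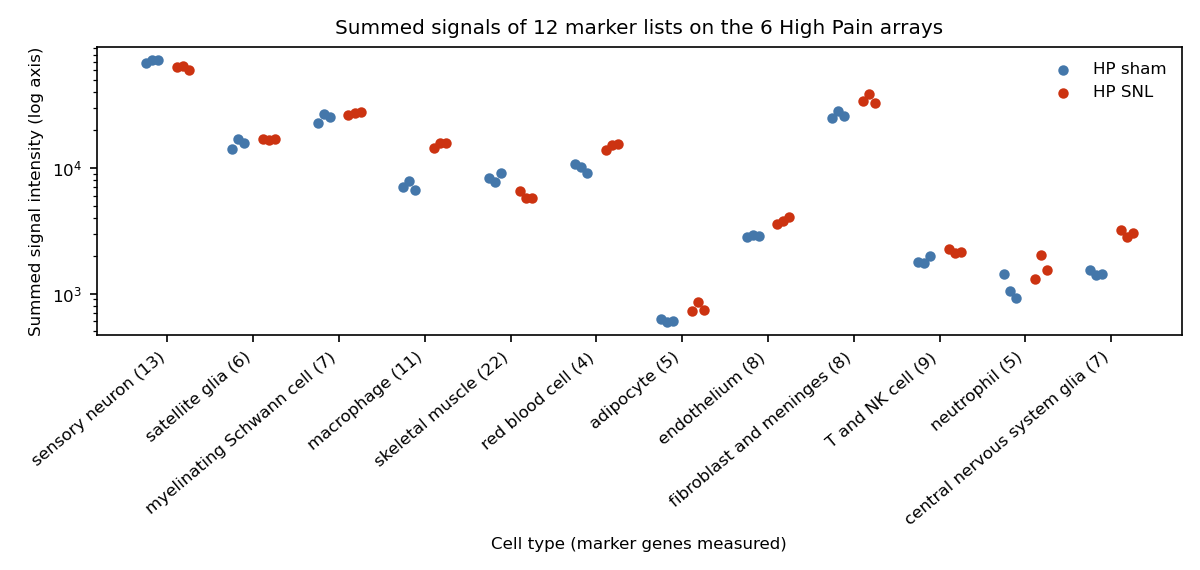
Summed signal intensity (log axis) of the measured marker genes of 12 cell types on the 3 HP sham and 3 HP SNL arrays, 1 point per array. The macrophage sum lies between 6638 and 7866 on the sham arrays and between 14310.2 and 15906 on the SNL arrays, and the muscle sum is lower on each SNL array than on each sham array.

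With limma, 1419 of 10411 genes (13.6%) passed a Benjamini-Hochberg adjusted p of 0.05, 731 higher after SNL (7.02%) and 688 lower (6.61%). The median log2 difference over all genes was -0.0008. The calls leaned on brightness: 22.9% of the brightest 25% of genes passed and 5.46% of the dimmest 25%, in which replicates scattered more (median SD of log2 signals 0.524 against 0.131). With the actin ratio in the model 816 passed. Leaving out HP sham array 1 gave 846, HP sham array 3 gave 866, HP SNL array 2 gave 945 and HP SNL array 3 gave 875. Without HP sham arrays 1 and 3 together it was 313, of which 269 were among the 1419. Of the 1419 genes, 523 (286 higher, 237 lower) kept the call in every other alternative that tested them: these are called firm in what follows, and unless a gene is said to have lost its call elsewhere, the genes named as having risen or fallen are firm. For 3570 genes (34.3%) the 3 SNL arrays lay wholly above or wholly below the 3 sham arrays, so a lack of overlap alone was common.

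Csrp3, Ankrd1, Tgm1 and Rasd1 were among the genes with large and firm increases. Csrp3 encodes a LIM-domain adaptor of the cytoskeleton named for striated muscle, and its signals were 331.8, 177.3 and 263.1 on the sham arrays and 1398.2, 1606.8 and 1454.5 on the SNL arrays. Every SNL array was above every sham array, and Csrp3 rose by 2.57 ± 0.22 (limma adjusted p = 0.000151). Without HP sham arrays 1 and 3 its difference was 3.06. The muscle marker sum was lower on the SNL arrays, and the part of muscle in the Csrp3 values was not tested. Ankrd1, a nuclear cofactor also named for muscle, went from 149.7 ± 23.9 to 531 ± 64.1 (log2 difference 1.82 ± 0.18), and its other probe set gave 4.38. Tgm1, a transglutaminase that crosslinks proteins, was at 89.4, 76.2 and 95.1 on the sham arrays and 396.5, 458.3 and 510.7 on the SNL arrays. The groups were far apart, and Tgm1 rose by 2.37 ± 0.19 (adjusted p = 9.82e-05). Rasd1, a small GTPase induced by glucocorticoids, was at 162.4, 115.2 and 120.6 on the sham arrays and 689.8, 747.7 and 666.9 on the SNL arrays and rose by 2.41 ± 0.21.

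Cytoskeletal and membrane genes were also among them. Tubb6, a beta-tubulin, rose from 135 ± 9.12 to 583 ± 63.5 (2.10 ± 0.18). Pdlim1, which links actin fibres to kinases through its PDZ and LIM domains, was at 1201.9, 1223.1 and 1100.0 on the sham arrays and 3165.2, 2868.2 and 3009.7 on the SNL arrays. Its 3 values within each group were close together, so that a difference of 1.36 ± 0.09 gave one of the smallest p-values of the comparison (adjusted p = 4.82e-05). Kif22, a kinesin that binds chromosomes, rose by 1.62 ± 0.11 and Nkain1, a membrane partner of the sodium pump, by 2.06 ± 0.22, with a wide spread after SNL (154.8 to 326.6). Ptpn5, a tyrosine phosphatase of neurons, rose from 119 ± 31.7 to 486 ± 135 (2.02 ± 0.30). Col18a1, the collagen from which endostatin is cut, rose from 503 ± 56.5 to 1843 ± 176 (1.87 ± 0.13; 2.35 on its other probe set), Smagp, a small cell surface glycoprotein, by 1.79 ± 0.14, and Litaf, an endosomal protein induced by lipopolysaccharide, from 888 ± 114 to 2317 ± 116 (1.39 ± 0.14).

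Genes with firm decreases included several that neurons express. Nrsn1, neurensin 1, a vesicle membrane protein of neurons, was at 1330.1, 1238.3 and 1293.0 on the sham arrays and 507.3, 512.7 and 449.6 on the SNL arrays. The highest SNL value was far under the lowest sham value, and Nrsn1 fell by 1.39 ± 0.08 (adjusted p = 3.56e-05). Nrn1, neuritin, a membrane-anchored factor of neurite growth, was at 4328.4, 3976.5 and 4096.2 on the sham arrays and 1759.6, 1161.5 and 1206.1 on the SNL arrays. SNL array 1 stood above the other SNL arrays, yet below all sham arrays, and Nrn1 fell by 1.61 ± 0.15. Rprm, reprimo, a cell cycle arrest protein, was at 1247.1, 1300.1 and 1139.1 on the sham arrays and 404.2, 348.4 and 360.9 on the SNL arrays and fell by 1.73 ± 0.11. Tmem150c, a membrane protein linked to mechanically gated currents, fell from 1152 ± 104 to 359 ± 20.2 (-1.68 ± 0.14), and Tmem233 from 1179.7 ± 155 to 438 ± 80.8 (-1.43 ± 0.14). Avil, the actin-binding protein advillin of sensory neurons and one of the neuronal markers above, fell from 5412 ± 313 to 2884 ± 256 (-0.91 ± 0.10). Dmxl2, a synaptic vesicle protein of the proton pump, fell by 0.86 ± 0.10, and Ntng1, netrin-G1, by 2.15 ± 0.28 from a dim 234 ± 26.5 to 56.0 ± 27.4. Epb41, the membrane skeleton protein 4.1, fell by 1.01 ± 0.09, but its other probe set was at 0.05. The neuronal marker sum moved the same way as these genes, at 67926 to 72271 on the sham arrays and 60277 to 64924 on the SNL arrays, and its part in the falls was not tested.

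**Figure D2:**
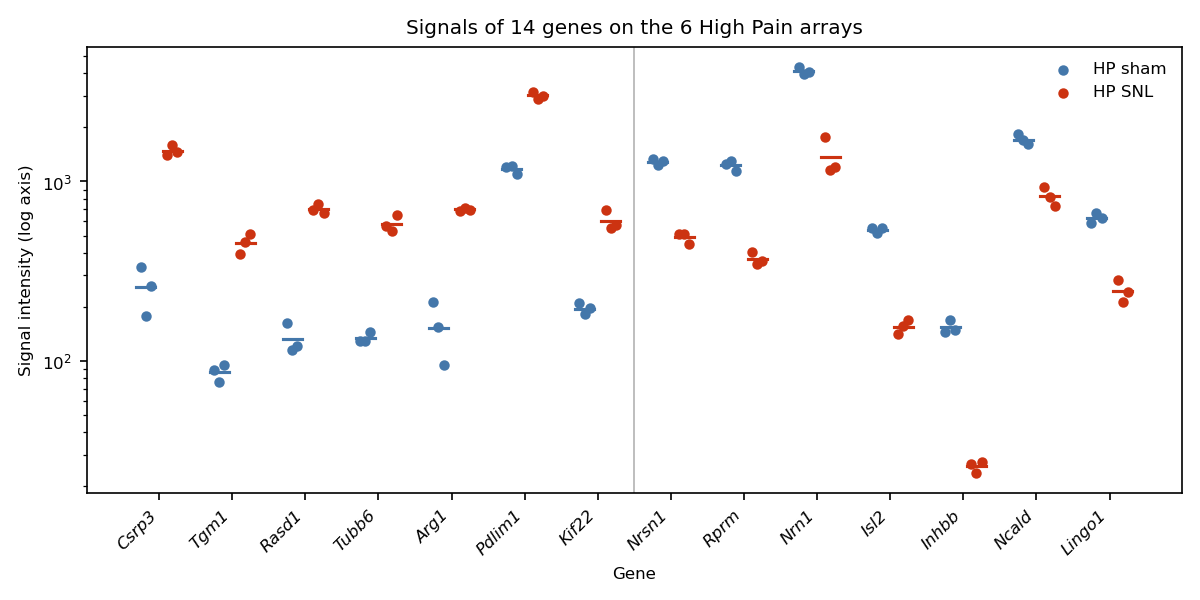
Signal intensity (log axis) of 7 genes that rose (left of the grey line) and 7 that fell (right) on each HP array; points are arrays and bars are means of 3. In each of the 14 genes the 3 SNL points lie wholly on one side of the 3 sham points.

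The 45 gene lists put these genes in context. The share of measured members past the threshold was above the 13.6% of all genes in 33 lists and at or below it in 12, and 8 lists had 25% or more. The lists were chosen by hand and many lean to bright genes, so these shares are descriptions. Counts of members in 1 direction are small: of 42 counts of 4 or more, 26 moved by over 1.5 times when some 1 array was left out, 22 with the actin ratio in the model and 40 without HP sham arrays 1 and 3, and of 37 counts of 1 to 3 the numbers were 23, 22 and 32. Calls ran in both directions in 35 lists, upward only in 7, downward only in 2, and the 21 aminoacyl-tRNA synthetases and partners, which load tRNAs, had none (median log2 difference 0.08). At an unadjusted p under 0.05, 4 of the 21 were higher.

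**Figure D3:**
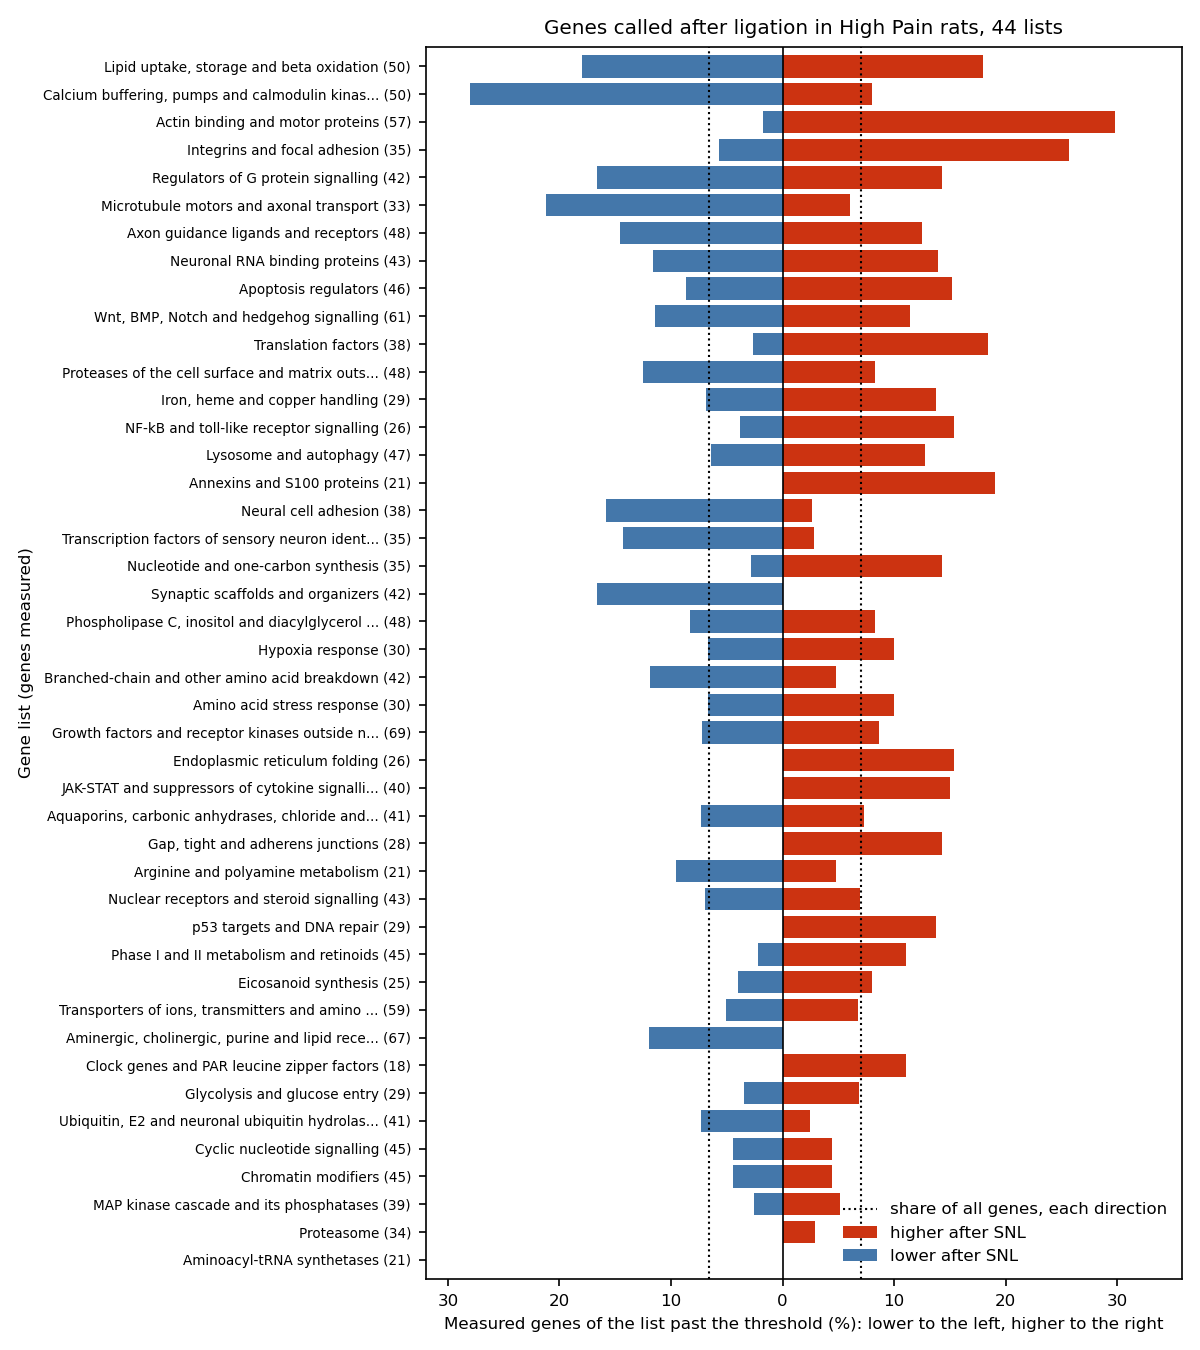
Share of the measured genes of 44 of the 45 lists that passed the test in HP, lower after SNL to the left and higher to the right; dotted lines give the share of all genes in each direction (6.61% and 7.02%). Calcium genes reach furthest to the left, actin binding genes furthest to the right, and the lipid list has equal bars.

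Genes that handle calcium moved down more than up. Of 50 measured, 14 fell and 4 rose, a share above the 13.6% of all genes, with a median log2 difference of -0.35. Of these, 8 of the falls and all 4 rises were firm (42.0% of the list lay among the brightest 25% of genes). The word firm does not cover the fit without HP sham arrays 1 and 3. There the rises of Camk2d, Rcan1 and Rcn3 were 0.63, 0.57 and 0.81. The differences of Ncald, Vsnl1, Kcnip2, Rcan2 and Atp2b3 were -1.05, -0.83, -1.03, -0.96 and -1.32. Calcium ions carry the signal of activity inside the neuron, and small sensor proteins, kinases, a phosphatase and pumps read and clear them. Ncald, a sensor of the neuronal calcium sensor family, was at 1827.8, 1697.6 and 1609.7 on the sham arrays and 927.0, 817.8 and 730.4 on the SNL arrays and fell by 1.06 ± 0.12. Its relatives Vsnl1, visinin-like 1, and Hpcal1 fell from 2968 ± 117 to 1750.1 ± 159.6 and from 1625 ± 82.6 to 1036 ± 18.4 (-0.77 ± 0.11 and -0.65 ± 0.10). Kcnip2, a sensor that is also a subunit of A-type potassium channels, fell by 0.98 ± 0.13, with -1.23 and 0.12 on its other probe sets.

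Pump and calcineurin genes of the list were called as well. Atp2b2 and Atp2b3, plasma membrane pumps that push calcium out of the cell, fell from 684 ± 63.4 to 343 ± 56.1 and from 834 ± 96.1 to 379 ± 34.1 (falls of 1.00 ± 0.18 and 1.14 ± 0.11), and the other probe sets of Atp2b3 gave -0.44 and -2.45. Ppp3cb, a catalytic subunit of the calcium-activated phosphatase calcineurin, fell by 0.59 ± 0.11. Its inhibitors parted: Rcan2 was at 1736.7, 1895.3 and 1634.4 on the sham arrays and 1062.1, 958.0 and 907.1 on the SNL arrays, while Rcan1 was at 907.5, 937.4 and 974.9 on the sham arrays and 1413.6, 1392.3 and 1379.6 on the SNL arrays. Neither pair of groups overlapped, and Rcan2 fell by 0.85 ± 0.11 as Rcan1 rose by 0.57 ± 0.08. Of the calmodulin kinases, Camk2d rose by 0.80 ± 0.10, although 1 of its other 2 probe sets was at 0.03, and Camk2b and Camk2g were at -0.52 ± 0.13 and -0.54 ± 0.14, called but not firm. The reticulum calcium-binding proteins Rcn3 and Calu, which are not neuronal in particular, rose by 0.87 ± 0.13 and 0.55 ± 0.10.

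The G protein list (42 measured, 6 higher and 7 lower, 31.0%, median 0.06) covers the switches below G protein-coupled receptors and the RGS proteins that turn them off. Rgs4 was at 4793.5, 4839.6 and 4844.4 on the sham arrays and 2708.7, 2014.8 and 1791.5 on the SNL arrays. The sham values were nearly equal and all above the SNL values, and Rgs4 fell by 1.17 ± 0.15 (adjusted p = 0.000863; -1.35 on its other probe set). Rgs10 fell from 2082 ± 251 to 995 ± 119 (-1.06 ± 0.12) and Rgs3 by 0.68 ± 0.12, with -0.45 and -0.17 on the other probe sets of Rgs3. Gnai1, an inhibitory G protein alpha subunit, fell by 0.53 ± 0.11, and Gnao1, the main alpha subunit of neurons, was at -0.66 ± 0.14 but lost the call without HP sham array 1. Rgs2, the one firm riser of the list, was at 375.0, 398.5 and 380.6 on the sham arrays and 601.9, 637.4 and 700.3 on the SNL arrays, without overlap, and rose by 0.75 ± 0.09 (0.51 on its other probe set). The number of members called higher was 3 without HP sham array 1, HP sham array 3 or HP SNL array 3.

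Second messengers carry signals on from these receptors. Of 48 genes of phospholipase C, inositol and diacylglycerol signalling, 4 rose and 4 fell (16.7%, median -0.07). Dgkh and Dgkz, kinases that end diacylglycerol signals by phosphorylating the lipid, fell from 1273 ± 121 to 498 ± 79.8 and from 1361 ± 22.5 to 657 ± 128 (-1.36 ± 0.13 and -1.07 ± 0.18). Plcb2 and Plcd4, phospholipases C, fell to signals of 49.9 ± 13.2 and 14.2 ± 4.62, the latter at about the 5th percentile of the SNL arrays (13.7 to 15.8), so the size of its change (-4.05 ± 0.42) is uncertain. Itpkc, which phosphorylates inositol trisphosphate, rose by 1.05 ± 0.18. The 4 rises of this list became 1 without HP sham array 1, HP sham array 3 or HP SNL array 2 and 2 without HP sham array 2 or HP SNL array 3, and 1 with the actin ratio in the model. Of 45 cyclic nucleotide genes 2 rose and 2 fell (8.9%, median 0.01): Rapgef4, the cAMP-activated exchange factor Epac2, was at 416.7, 397.9 and 418.9 on the sham arrays and 134.4, 211.2 and 139.2 on the SNL arrays and fell by 1.37 ± 0.19, and Pde5a, which breaks down cGMP, rose by 1.31 ± 0.24 from 73.4 ± 23.6 to 178 ± 30.4. In the MAP kinase list (39 measured, 2 higher and 1 lower, 7.7%), the rises were in phosphatases that switch the kinases off, Dusp26 from 1353 ± 79.8 to 2760.5 ± 108 (1.03 ± 0.11) and Dusp6 by 0.85 ± 0.14.

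**Figure D4:**
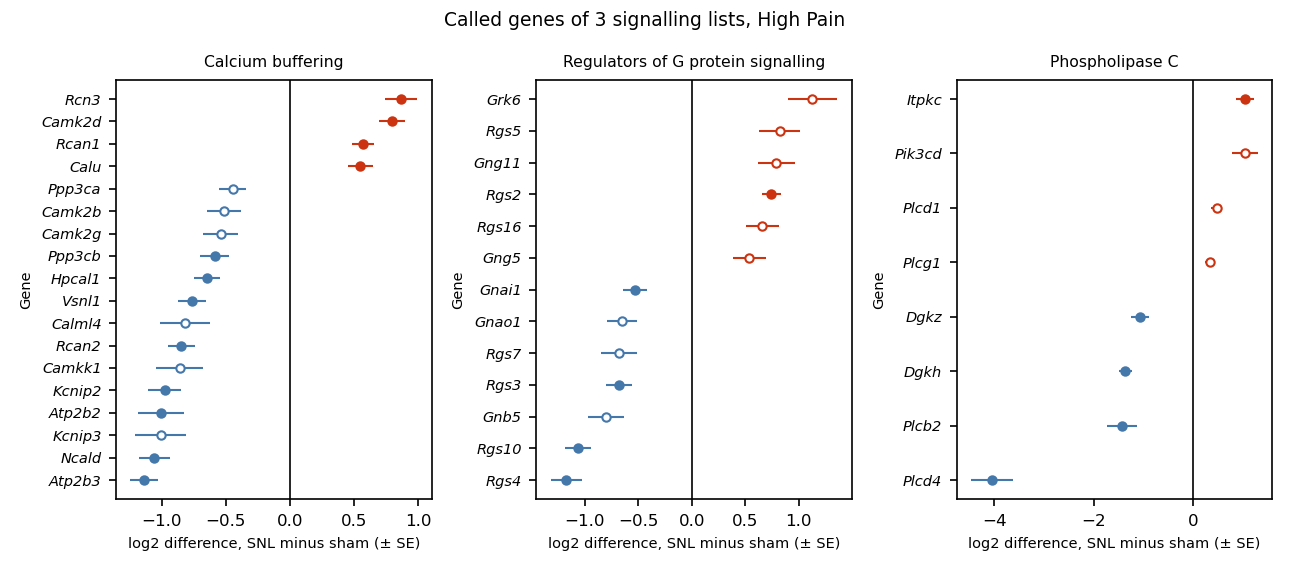
Log2 differences (SNL minus sham, ± SE) of the called genes of the calcium, G protein and phospholipase C lists; filled points are firm, and open points lost the call in at least 1 alternative besides the fit without HP sham arrays 1 and 3, which is not counted for either. Of the 18 calcium genes 14 lie to the left of 0, and Plcd4 lies furthest to the left of all.

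Among surface molecules by which axons and synapses hold together, falls outnumbered rises. Of 38 neural adhesion genes 6 fell and 1 rose (18.4%, median -0.21). Cntnap1 and Cntnap2 encode Caspr proteins of the axon beside the node of Ranvier. Cntnap1 was at 696.6, 698.4 and 569.6 on the sham arrays and 290.3, 261.6 and 318.7 on the SNL arrays. Cntnap2 was at 899.4, 905.8 and 927.0 on the sham arrays and 466.7, 373.5 and 376.9 on the SNL arrays. Both were lower on each SNL array, by -1.17 on the log2 scale in each gene. Cntn4, a contactin, fell to signals of 7.3 to 14.8, at or below the 5th percentile of the SNL arrays. Of 42 synaptic scaffold and organizer genes 7 fell and none rose (16.7%, median -0.14). Nptx1, a secreted pentraxin that clusters glutamate receptors, was at 1940.8, 2444.1 and 1874.8 on the sham arrays and 777.9, 423.4 and 526.7 on the SNL arrays. All SNL values were far below the lowest sham value, and Nptx1 fell by 1.89 ± 0.21 (adjusted p = 0.000549). Lin7b, Apba1 and Caskin1, which bind the scaffold kinase CASK or each other, fell by 1.51 ± 0.19, 1.02 ± 0.16 and 4.16 ± 0.21, and Caskin1 ended near the 5th percentile (15.6 ± 3.97).

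Guidance genes went both ways (48 measured, 6 higher and 7 lower, 27.1%, median 0.05). Lingo1, a receptor partner that holds back axon growth, was at 588.6, 669.9 and 623.8 on the sham arrays and 281.9, 214.2 and 241.6 on the SNL arrays and fell by 1.35 ± 0.13 (adjusted p = 0.000215). The class 4 semaphorins Sema4b and Sema4d fell by 1.75 ± 0.33 and 0.92 ± 0.15, and Dpysl4, of the CRMP family below semaphorin receptors, by 0.74 ± 0.10. Sema6a, a transmembrane semaphorin, rose from 416 ± 95.3 to 992 ± 115 (1.27 ± 0.21), but its other probe set was at -0.32, and Plxnb2, a receptor of class 4 semaphorins, rose by 0.76 ± 0.13. The members called higher numbered 3, 2, 2 and 2 without HP sham array 1, HP sham array 3, HP SNL array 1 and HP SNL array 3, and those called lower 4 without HP sham array 2. Motors and adaptors of axonal transport fell more than they rose (33 measured, 7 lower and 2 higher, 27.3%, median -0.14; 75.8% lay among the brightest 25% of genes). The dynein intermediate chains Dync1i1 and Dync1i2 fell from 2446 ± 151 to 1599 ± 160.4 and from 3329.9 ± 273 to 2143 ± 185 (-0.62 ± 0.10 and -0.64 ± 0.12). Rhot1, which ties mitochondria to motors, and Fez1, a kinesin adaptor, fell by 0.60 ± 0.12 and 0.70 ± 0.09. Kif5a, the neuronal kinesin heavy chain, was at -0.64 ± 0.08 and lost the call when its probe sets were averaged.

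The list of aminergic, cholinergic, purine and lipid receptors and their like had 8 falls and no rises among 67 measured genes (11.9%, median -0.05). Chrna3, a nicotinic acetylcholine receptor subunit, was at 452.8, 461.9 and 430.5 on the sham arrays and 116.3, 77.9 and 110.2 on the SNL arrays. The groups did not overlap, and Chrna3 fell by 2.15 ± 0.25 (adjusted p = 0.00064). Glrb, the anchoring subunit of the glycine receptor, fell from 683 ± 22.5 to 413 ± 60.9 (-0.73 ± 0.12). Gprc5b, an orphan receptor, and Mrgprx3, a Mas-related receptor of sensory neurons, fell by 0.98 ± 0.15 and 0.52 ± 0.11. Without HP sham array 1, HP sham array 3 or HP SNL array 3 the count of falls was 5, and 2 members rose without HP sham array 3 and 1 without LP sham array 1. Among 59 transporter and pump genes 4 rose and 3 fell (11.9%): Fxyd5 and Fxyd2, regulators of the sodium pump, moved apart, from 390.1 ± 54.5 to 876 ± 97.8 (1.17 ± 0.16) and from 2912 ± 103 to 1995 ± 145 (-0.55 ± 0.11). Of 41 aquaporin, carbonic anhydrase and leak channel genes 3 rose and 3 fell (14.6%): Piezo1, a mechanically gated channel, was at 209.8, 220.4 and 216.7 on the sham arrays and 403.8, 404.3 and 384.3 on the SNL arrays and rose by 0.88 ± 0.11, the intracellular chloride channel Clic4 rose by 0.72 ± 0.10, and Car10, a carbonic anhydrase relative without enzyme activity, fell by 1.26 ± 0.15. The 3 falls became 1 without HP sham array 1, HP sham array 3, HP SNL array 1 or HP SNL array 3. Of 28 junction genes 4 rose (14.3%), with Cldn4 alone firm, and the count became 1 without HP SNL array 3 and 2 without HP sham array 1, HP sham array 3 or HP SNL array 2.

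Actin genes had many rises and 1 fall. Of 57 actin binding and motor genes 17 rose and 1 fell (31.6%, median 0.25; 70.2% among the brightest 25% of genes). Arpc1b, a subunit of the Arp2/3 complex that starts actin branches, was at 1279.8, 1545.6 and 1137.1 on the sham arrays and 2745.7, 2723.4 and 3287.5 on the SNL arrays. The groups did not overlap, and Arpc1b rose by 1.15 ± 0.13. Tpm4, a tropomyosin of non-muscle cells, rose from 1528 ± 22.0 to 2675 ± 240.3 (0.80 ± 0.10), Pfn1, profilin, by 0.76 ± 0.13, Ezr, ezrin, by 0.78 ± 0.13, Flna, filamin, by 0.65 ± 0.10 and Zyx, zyxin of focal adhesions, by 0.62 ± 0.11. Lcp1, the actin bundler of leukocytes, rose from 1065 ± 78.1 to 2583 ± 283 (1.28 ± 0.12). The 17 became 10, 9, 10 and 10 without HP sham array 1, HP sham array 3, HP SNL array 2 and HP SNL array 3, and 8 with the actin ratio in the model.

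Integrin genes also had more rises than falls. Of 35 integrin and focal adhesion genes 9 rose and 2 fell (31.4%, median 0.17), and the 9 were 9 in each fit without 1 array but 2 without HP sham arrays 1 and 3 together. Cd63, a tetraspanin, was at 2266.2, 2488.0 and 2438.2 on the sham arrays and 4431.7, 4528.6 and 4950.0 on the SNL arrays and rose by 0.95 ± 0.10. The syndecan Sdc4, the hyaluronan receptor Cd44 and talin, Tln1, rose by 0.80 ± 0.13, 0.85 ± 0.14 and 0.62 ± 0.11, and Sdc1 by 1.02 ± 0.19, with 0.45 on its other probe set. Itga7 and Itgb1, which pair as a laminin receptor, rose from 1518 ± 22.8 to 2504 ± 270.3 and from 2495 ± 106 to 3767 ± 391 (0.72 ± 0.12 and 0.59 ± 0.11), and tensin, Tns1, fell by 0.67 ± 0.13. Of 21 annexin and S100 genes 4 rose (19.0%, median 0.31): S100a11 was at 3060.3, 3432.7 and 3158.6 on the sham arrays and 5941.0, 5505.7 and 5559.2 on the SNL arrays and rose by 0.82 ± 0.08, S100a4 by 1.21 ± 0.22 and Anxa1, annexin A1, by 0.95 ± 0.15. Macrophages express many genes of these lists, and the macrophage marker sum was 14310.2 to 15906 on the SNL arrays against 6638 to 7866 on the sham arrays. Its part in these increases was not tested.

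Lipid genes were called as often as calcium genes, a share above the 13.6% of all genes. The calls were equal in number each way (50 measured, 9 higher and 9 lower, median 0.00). The firm rises were in uptake, activation and storage. Plin2, which coats lipid droplets, was at 1091.8, 875.8 and 1002.7 on the sham arrays and 2147.5, 1998.2 and 2221.6 on the SNL arrays. Its lowest SNL value was above the highest sham value by a wide margin, and Plin2 rose by 1.10 ± 0.10 (0.53 on its other probe set). Cd36, a fatty acid receptor, rose from 116 ± 12.0 to 227 ± 23.8 (0.97 ± 0.17), Acsl4, which activates arachidonic acid, from 703 ± 26.3 to 1367 ± 56.0 (0.96 ± 0.13), and the carrier Fabp5 and the droplet coat protein Plin3 by 0.47 ± 0.10 and 0.44 ± 0.08. Eci1, an isomerase of fatty acid oxidation, was called higher too (0.65 ± 0.17) but was not firm. With the actin ratio in the model the 9 rises were 5. The macrophage sum was higher on the SNL arrays, as given above. The adipocyte sum was 594.6 to 630.3 on the sham arrays and 729.6 to 854.1 on the SNL arrays, although none of its 5 markers passed. The part of either cell type in these rises was not tested.

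The firm falls were mostly in fatty acid activation, transport and mitochondrial oxidation. Acsl6, the acyl-CoA synthetase of neurons, was at 415.7, 506.4 and 516.8 on the sham arrays and 198.8, 193.0 and 161.0 on the SNL arrays and fell by 1.37 ± 0.12 (adjusted p = 0.000184). Cpt2, the inner carnitine palmitoyltransferase, was dim and fell by 2.38 ± 0.41, Etfa, which passes electrons from fatty acid oxidation, by 0.69 ± 0.12, the isomerase Ech1 by 0.53 ± 0.09, and Nceh1, a cholesterol ester hydrolase, by 0.82 ± 0.14. Fabp3, a fatty acid carrier that muscle also holds, fell from 884 ± 94.1 to 397 ± 28.9 (-1.15 ± 0.19), and without HP sham arrays 1 and 3 it was at -1.21 (adjusted p = 0.0684). The list itself mixes uptake, storage and oxidation, and this split by role was made after the values were seen.

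**Figure D5:**
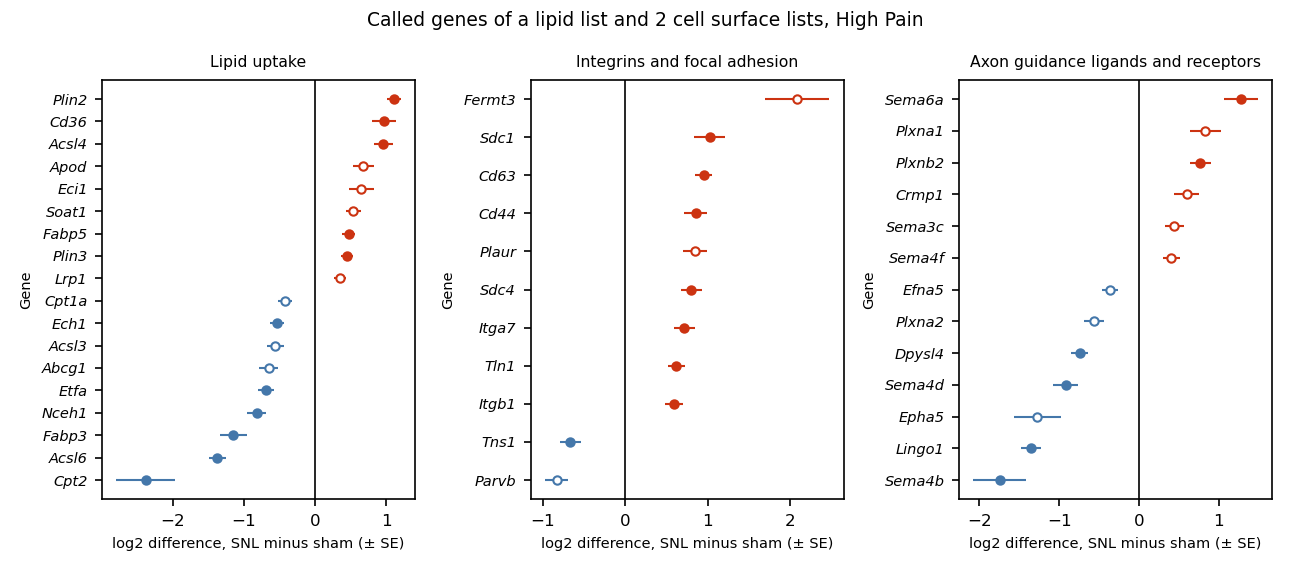
Log2 differences (SNL minus sham, ± SE) of the called genes of the lipid, integrin and guidance lists; filled points are firm, and open points lost the call in at least 1 alternative besides the fit without HP sham arrays 1 and 3, which is not counted for either. The lipid list has 9 points on each side of 0, and 9 of the 11 integrin points lie to the right.

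Other metabolic lists had smaller shares of called genes. Arg1, arginase 1, which turns arginine into ornithine and is carried by neurons and some macrophages, was at 212.0, 153.9 and 94.9 on the sham arrays and 689.3, 708.9 and 698.0 on the SNL arrays. The sham values were scattered and the SNL values nearly equal, without overlap, and Arg1 rose by 2.25 ± 0.25 (adjusted p = 0.000545), while Ass1, which makes the precursor of arginine, fell from 531 ± 56.2 to 302 ± 9.06 (-0.80 ± 0.12). The list of 21 arginine and polyamine genes had 1 rise and 2 falls (14.3%, median -0.11). Of 29 glycolysis genes 2 rose and 1 fell (10.3%, median 0.01), the glucose transporter Slc2a1 at 0.58 ± 0.09 and the muscle-type phosphofructokinase Pfkm at -0.65 ± 0.09. Pfkm was at -0.74 without HP sham arrays 1 and 3. Of 42 amino acid breakdown genes 2 rose and 5 fell (16.7%, median -0.23): Maoa, monoamine oxidase A, rose from 1111 ± 80.4 to 2075 ± 234 (0.90 ± 0.13) and Got1, aspartate aminotransferase, fell by 0.70 ± 0.13. The 5 falls became 2 without HP sham array 2 and 3 without HP sham array 1 or any 1 of the HP SNL arrays.

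Genes of purine breakdown and salvage were among the called genes. Pnp, which cleaves inosine and guanosine, was at 1637.7, 1586.9 and 1257.0 on the sham arrays and 2847.1, 2740.8 and 2763.2 on the SNL arrays, without overlap, and rose by 0.91 ± 0.11, and Entpd2, which degrades extracellular ATP, rose from 1076 ± 70.4 to 1812 ± 103 (0.75 ± 0.13). Adk, the kinase that removes adenosine, fell from 2008 ± 63.1 to 1260.3 ± 136 (-0.68 ± 0.10; -1.10 on its other probe set). The list of 35 nucleotide genes had 5 rises and 1 fall (17.1%, median 0.11). The 5 became 3 without HP sham array 1, HP sham array 2, HP SNL array 1, HP SNL array 3, LP sham array 2, LP sham array 3 or LP SNL array 3, and 2 with the actin ratio in the model. Of 45 detoxification and retinoid genes 5 rose and 1 fell (13.3%, median -0.04): Crabp2, which carries retinoic acid to its nuclear receptor, was at 486.7, 591.1 and 577.6 on the sham arrays and 1283.6, 1260.4 and 1372.1 on the SNL arrays and rose by 1.25 ± 0.14, and the cytochromes Cyp4b1 and Cyp1b1 rose by 0.96 ± 0.12 and 0.76 ± 0.13. Of 43 nuclear receptor and steroid genes 3 rose and 3 fell (median -0.03), a share near the 13.6% of all genes. Rxra, the shared partner of nuclear receptors, rose from a dim 71.8 ± 9.42 to 167 ± 33.3 (1.20 ± 0.21). Tspo, a mitochondrial protein raised in reactive glia and macrophages, rose from 672 ± 28.3 to 1380.4 ± 163 (1.03 ± 0.14). Tsc22d3, a target of glucocorticoids, fell from 2647 ± 84.1 to 1553 ± 173 (-0.77 ± 0.13). Of 25 eicosanoid genes 2 rose and 1 fell (12.0%), with Pla2g4a, the phospholipase that frees arachidonic acid, up from 99.4 ± 10.4 to 199 ± 18.1 (1.00 ± 0.14).

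Growth factor and receptor kinase genes gave 6 rises and 5 falls of 69 (15.9%, median -0.0018). Nrg1, neuregulin 1, a ligand of ErbB receptors, fell from 448 ± 38.6 to 252 ± 22.3 (-0.82 ± 0.12). Its other probe sets ranged from -2.34 (adjusted p = 0.0465) to -0.05 (adjusted p = 0.971), and those at -1.46, -0.34 and -0.13 did not pass either. Fgf9, a fibroblast growth factor, was at 604.3, 677.1 and 671.4 on the sham arrays and 317.8, 243.5 and 275.5 on the SNL arrays and fell by 1.23 ± 0.14. Fgf13, an intracellular relative that binds sodium channels, fell from 5149 ± 319 to 3242 ± 341 (-0.67 ± 0.12). Csf1r, the receptor on which macrophages depend, rose by 1.05 ± 0.12 and Axl, which helps clear dead cells, by 0.59 ± 0.10, beside the macrophage sums above, and Hbegf, a ligand of the EGF receptor, by 0.58 ± 0.12. The count of rises was 3 without HP sham array 1 or 3, and that of falls 3 without HP sham array 3. In the Wnt, BMP, Notch and hedgehog list (61 measured, 7 higher and 7 lower, 23.0%, median 0.11), Inhbb, a subunit of activin B, was at 145.9, 170.2 and 149.4 on the sham arrays and 26.7, 23.8 and 27.4 on the SNL arrays. Its SNL values were nearly equal and far below the sham values, and Inhbb fell by 2.53 ± 0.29 (adjusted p = 0.000612). Smad1, which carries BMP signals to the nucleus, rose from 677 ± 51.8 to 1255 ± 85.4 (0.89 ± 0.09), and Bmp1, a protease that matures collagen and not a BMP ligand, by 0.72 ± 0.12. The 7 higher became 4 without HP sham array 1, HP sham array 3 or HP SNL array 2, and the 7 lower became 4 without HP sham array 2 or 3.

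Among transcription factors of sensory neuron identity 1 rose and 5 fell of 35 (17.1%, median -0.11). Isl2, a LIM homeodomain factor of sensory and motor neurons, was at 548.7, 515.9 and 550.8 on the sham arrays and 141.4, 156.9 and 168.5 on the SNL arrays. Both groups were tight and well apart, and Isl2 fell by 1.79 ± 0.17 (adjusted p = 0.000277). Hoxa5, a homeobox factor of position along the body, fell from 362 ± 41.4 to 176 ± 9.6 (-1.03 ± 0.16). The 5 falls became 3 without HP sham array 1, HP sham array 3, HP SNL array 3 or LP SNL array 1, and the 1 rise became 0 without HP sham array 1, HP sham array 3, HP SNL array 1 or HP SNL array 2. Of 45 chromatin genes 2 rose and 2 fell (8.9%, median 0.14), all firm. Ezh2 and Ezh1, alternative enzymes of the Polycomb complex that methylates histone H3, moved apart: Ezh2, the form of dividing cells, was at 87.2, 91.4 and 97.0 on the sham arrays and 228.3, 194.2 and 256.4 on the SNL arrays and rose by 1.28 ± 0.13, and Ezh1 was at 1142.2, 1186.4 and 1134.9 on the sham arrays and 804.8, 751.0 and 736.1 on the SNL arrays and fell by 0.60 ± 0.08. Neither pair of groups overlapped. Sirt5, a mitochondrial deacylase, fell from 889.9 ± 87.8 to 428 ± 33.1 (-1.05 ± 0.12), and the nucleosome binder Hmgn2 rose by 0.47 ± 0.10.

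RNA-binding genes had 6 rises and 5 falls of 43 (25.6%, median 0.00; 51.2% among the brightest 25% of genes). Elavl1, the HuR protein of all cells, rose from 410.2 ± 35.2 to 632 ± 70.1 (0.62 ± 0.12) and Rbm3, a cold-induced protein, from 803 ± 48.7 to 1292 ± 133 (0.68 ± 0.12). Cpeb3, a regulator of local translation, fell from 967 ± 87.1 to 584 ± 20.0 (-0.72 ± 0.09). The neuronal relatives Elavl4 and Rbfox3, the NeuN antigen, were at -0.81 ± 0.16 and -1.05 ± 0.23, called but not firm. The rises of this list numbered 3 without HP sham array 1, 2 or 3 or HP SNL array 3, and the falls 3 without HP SNL array 3. Of 38 translation factors 7 rose and 1 fell (21.1%, median 0.18; 73.7% among the brightest 25% of genes), with the helicase Eif4a1 up by 0.61 ± 0.08 while the initiation factor Eif1b fell by 0.56 ± 0.10. The 7 became 1 without HP sham array 1 or 3, 2 without HP SNL array 1, 3 without HP SNL array 2 or 3, and 4 without LP sham array 2, LP sham array 3 or LP SNL array 1.

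Genes of growth arrest and cell stress were also called. The shares of their lists stand beside 13.6% of all genes, and that of p53 and DNA repair genes (13.8%) was near it. Gadd45a, a sensor of growth arrest and DNA damage, was at 538.2, 411.8 and 506.1 on the sham arrays and 1938.0, 1969.4 and 2074.0 on the SNL arrays. Every SNL array was far above every sham array, and Gadd45a rose by 2.04 ± 0.18 (adjusted p = 0.000184). Gadd45g and the cell cycle inhibitor Cdkn1a rose from 171 ± 25.7 to 419 ± 39.5 and from 456 ± 108 to 961 ± 122 (1.29 ± 0.17 and 1.10 ± 0.20), and with Btg1, which was not firm, these were the 4 rises of 29 p53 and DNA repair genes (13.8%, none lower, median 0.01). Of 46 apoptosis genes 7 rose and 4 fell (23.9%, median 0.18), with Tnfrsf1a, a receptor of tumour necrosis factor, up from 605 ± 92.8 to 1239 ± 57.9 (1.04 ± 0.14) and Ripk3, a kinase of necroptosis, by 0.81 ± 0.15. The 7 became 4 without HP sham array 1 and 3 without HP SNL array 2, and the 4 falls became 2 without HP sham array 1, HP sham array 2 or HP SNL array 3. With the actin ratio in the model 2 rose and none fell. Folding genes of the endoplasmic reticulum had 4 rises of 26 (15.4%, median 0.20), with Sdf2l1 firm at 0.58 ± 0.10, but 1 without HP sham array 3 and 2 without HP sham array 1, HP SNL array 1 or HP SNL array 3. The amino acid stress list had 3 rises and 2 falls of 30 (16.7%, median -0.0021), none firm. Of 34 proteasome genes 1 rose (2.9%), the immune subunit Psmb8, and of 41 ubiquitin genes 1 rose and 3 fell (9.8%), none firm, although 79.4% and 63.4% of these lists lay among the brightest 25% of genes. Of 18 clock genes 2 rose (11.1%), neither firm.

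Among inflammatory and transport genes, Tnfaip6, which binds hyaluronan and is induced by tumour necrosis factor, was at 261.8, 155.6 and 160.5 on the sham arrays and 703.5, 866.1 and 523.1 on the SNL arrays. It rose by 1.86 ± 0.24, with 0.68 on its other probe set. Cd14, a co-receptor of lipopolysaccharide, rose from 213 ± 5.74 to 415 ± 59.9 (0.95 ± 0.12) and Pycard, an inflammasome adaptor, from 246 ± 6.4 to 459 ± 43.0 (0.89 ± 0.10), in a list of 26 with 4 rises and 1 fall (19.2%, median 0.30). Of 40 JAK-STAT genes 6 rose and none fell (15.0%, median 0.24), 3 of them without HP SNL array 3, with Jak2 and Ifngr2 firm at 0.75 ± 0.16 and 0.62 ± 0.12. Of 47 lysosome genes 6 rose and 3 fell (19.1%, median 0.02): Cd68, a lysosomal protein of macrophages, was at 253.5, 243.4 and 177.2 on the sham arrays and 699.2, 731.7 and 831.8 on the SNL arrays and rose by 1.76 ± 0.23, Gm2a, the ganglioside activator, rose by 0.51 ± 0.09, and the acid lipase Lipa fell by 0.65 ± 0.11. The 6 became 2 without HP sham array 3 and 3 without HP SNL array 3. Cd14 and Cd68 are genes of macrophages, and Cd68 is itself among the 11 markers of the macrophage sum. That sum was higher on the SNL arrays, and its part in these rises was not tested. Of 29 iron, heme and copper genes 4 rose and 2 fell (20.7%, median 0.11): Hamp, hepcidin, the hormone that blocks iron export, was at 368.6, 338.0 and 443.2 on the sham arrays and 1006.0, 920.8 and 999.9 on the SNL arrays and rose by 1.35 ± 0.16, Mt3, the metallothionein of neural tissue, fell from 5203 ± 276 to 2840.5 ± 42.9 (-0.87 ± 0.12) and Steap3, an iron reductase, by 0.86 ± 0.13. The 4 rises became 2 without HP sham array 3 and 1 with the actin ratio in the model. The red blood cell marker sum was 9104 to 10663 on the sham arrays and 13784 to 15421 on the SNL arrays, and its part in this list was not tested. The hypoxia list had 3 rises and 2 falls of 30 (16.7%, median 0.13), with the oxygen-regulated factors Epas1 and Hif1a up from 1388 ± 63.6 to 2424 ± 133 and from 1521 ± 165 to 2384 ± 231 (0.80 ± 0.09 and 0.65 ± 0.11; 0.28 on the other probe set of Hif1a). Surface and matrix proteases gave 4 rises and 6 falls of 48 (20.8%, median 0.13), 3 falls without HP sham array 3 or HP SNL array 3, and 2 rises without HP SNL array 3. Adamts1 and Ece1, the endothelin-converting enzyme, rose by 0.95 ± 0.18 and 0.51 ± 0.09, Dpp6, a partner of Kv4 potassium channels, fell from 1964 ± 86.0 to 974 ± 135 (-1.02 ± 0.14), and Adam22, a synaptic receptor of Lgi1, fell by 0.93 ± 0.10, with -0.31 on its other probe set.

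Promoters of called genes were searched for short motifs, since AP-1 factors such as Jun are raised by axon injury. The RefSeq promoters of rat assembly GRCr8 (250 bases before to 50 after the gene start) matched 8631 of 10411 measured genes. The AP-1 motif TGANTCA, which reads the same on both strands, was in 8.1% of 595 promoters of genes that were higher, in 5.5% of 564 of genes that were lower, in 5.5% of all 8631 and in 7.3% of the 27457 promoters of the table. The CCAAT box (CCAAT, either strand) was in 42.0%, 34.8% and 37.6% of the higher, lower and measured sets, the ETS motif (AGGAAGT) in 10.4%, 6.7% and 8.2%, the CRE motif (TGACGT) in 8.9%, 10.6% and 10.6%, the cell cycle homology region (TTTGAA) in 11.6%, 10.5% and 11.7%, and E2F (TTGGCGC or TTCCCGC) in 11.8%, 9.6% and 11.4%. These are shares of letters in a window, with no test, and the motifs can overlap. Of the 27 and 33 promoters found for the 40 genes with the smallest p in each direction, 2 and 2 held AP-1.

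The sequences below are shown because they hold AP-1 letters beside 4 genes with increases and 1 with a decrease. Each is the 250 bases before the gene start, 5′ to 3′ on the gene's strand, with AP-1 in capitals. Sprr1a, a growth-associated gene, lies at chr2:180752626-180752875 (minus strand) with sites that start 147 and 117 bases before the gene, Tnfaip6 at chr3:56911148-56911397 (plus) with 1 at 192, Hamp at chr1:95300272-95300521 (minus) with 1 at 107, Cd68 at chr10:54882442-54882691 (minus) with sites at 205 and 80, and Cntn4 at chr4:140180571-140180820 (plus) with 1 at 187.
Sprr1a: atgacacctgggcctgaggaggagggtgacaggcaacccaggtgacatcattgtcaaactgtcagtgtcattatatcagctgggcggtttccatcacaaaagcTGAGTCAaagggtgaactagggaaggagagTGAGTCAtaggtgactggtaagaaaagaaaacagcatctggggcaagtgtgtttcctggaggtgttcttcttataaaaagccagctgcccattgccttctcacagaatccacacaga
Tnfaip6: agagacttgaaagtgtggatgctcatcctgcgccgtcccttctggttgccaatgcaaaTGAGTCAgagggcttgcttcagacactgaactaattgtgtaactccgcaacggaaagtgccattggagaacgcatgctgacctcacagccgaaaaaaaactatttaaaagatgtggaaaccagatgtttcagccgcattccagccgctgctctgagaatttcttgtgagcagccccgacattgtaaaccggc
Hamp: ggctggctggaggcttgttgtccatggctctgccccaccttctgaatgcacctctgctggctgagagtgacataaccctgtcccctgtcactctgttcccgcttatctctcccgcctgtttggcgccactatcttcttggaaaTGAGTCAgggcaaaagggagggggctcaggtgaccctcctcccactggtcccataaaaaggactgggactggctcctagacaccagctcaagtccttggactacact
Cd68: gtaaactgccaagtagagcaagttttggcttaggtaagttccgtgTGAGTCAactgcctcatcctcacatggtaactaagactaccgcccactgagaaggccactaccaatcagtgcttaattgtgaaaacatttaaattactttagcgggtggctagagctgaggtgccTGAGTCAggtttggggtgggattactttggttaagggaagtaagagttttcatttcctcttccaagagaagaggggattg
Cntn4: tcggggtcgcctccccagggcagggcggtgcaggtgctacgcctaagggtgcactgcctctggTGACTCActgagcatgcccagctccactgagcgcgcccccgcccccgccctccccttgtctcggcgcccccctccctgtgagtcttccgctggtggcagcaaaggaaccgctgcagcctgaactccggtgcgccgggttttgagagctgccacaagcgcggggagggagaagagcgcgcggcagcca
Sprr1a went from 151 ± 32.6 to 736 ± 109 (2.29 ± 0.15), and the values of Tnfaip6, Hamp and Cd68 are given above, and Cntn4 went from 129 ± 15.2 to 11.2 ± 3.76 (-3.45 ± 0.25). These genes were picked for their AP-1 letters, with both directions among them. They therefore cannot show whether the motif goes with a direction of change.

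The LP rats, which have their own sham arrays, give the same comparison in the other sub-line, with only the estimate of the spread in common. There 1504 of 10411 genes passed (14.4%). Of the 1419 genes called in HP, 1379 had the same sign in LP (97.2%), against 71.6% of all genes, and 999 were called in both. The difference of the ligation effect itself, HP minus LP, passed for 0 of 10411 genes (0.0%) with limma, and 490 were at an unadjusted p under 0.05. No statement that a gene responded more in HP therefore holds up. The lowest adjusted p, 0.189, was that of C8h11orf65, an open reading frame, and Ptf1a, a transcription factor of inhibitory neurons. C8h11orf65 was at 100.6, 111.2 and 107.3 on the sham arrays and 18.6, 18.5 and 34.1 on the SNL arrays. In HP it fell by 2.17 ± 0.34, called but not firm, and its other probe set was at -0.19. In LP it went from 55.6 ± 23.1 to 133 ± 31.5 (1.31 ± 0.34). It was the one gene of the 999 with opposite signs. Ptf1a fell in HP from 112 ± 45.9 to 24.8 ± 3.7 (-2.05 ± 0.29), and in LP it had a difference of 0.82 ± 0.29 (adjusted p = 0.0904).

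Several genes described above show this side by side. Csrp3 had 2.23 ± 0.22 in LP, Pdlim1 1.28 ± 0.09, Gadd45a 2.34 ± 0.18 and Hamp 1.85 ± 0.16. Nrsn1 had -1.67 ± 0.08 in LP, Isl2 -2.25 ± 0.17, Vsnl1 -0.85 ± 0.11 and Chrna3 -2.61 ± 0.25. Some lists had counts like those in HP and others did not. Calcium genes had 4 rises and 17 falls in LP (median -0.28), actin genes 20 and 1 (0.24), lipid genes 8 and 8 (-0.004), integrin genes 9 and 2 (0.20), and synaptic scaffolds 0 and 9 (-0.23). MAP kinase genes had 4 rises and 4 falls in LP against 2 and 1 in HP, chromatin genes 5 and 4 against 2 and 2, and proteases 8 and 4 against 4 and 6. The difference between such counts was not tested. None of the members of the 45 lists passed the test of the difference between the sub-lines.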

How the data were processed

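Total RNA of L4/L5 dorsal root ganglia was hybridised to Affymetrix arrays. The deposited table holds the authors' signal intensities for 15923 probe sets, linear and up to 13930.7. The submitters' processing notes name only RMA, with no version, whereas the equal trimmed means (2% left out at each end) look like Affymetrix global scaling, so the authors' steps are not settled. No further normalization was applied. Gene names came from the platform annotation and were updated through RefSeq GRCr8 (12748 by gene identifier, 2 by accession, 33 with the platform's symbol). Of all, 12783 had 1 symbol, 312 several and 2771 none, besides 57 controls. For 1868 genes with several probe sets, the one with the highest mean over the 12 arrays was used.

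On log2(value + 1), limma 3.58.1 (R 4.3.3) fitted 4 group means over 12 arrays (8 residual and 2.05 prior degrees of freedom) with contrasts within HP, within LP and between these effects. Tests were two-sided, adjusted by Benjamini-Hochberg over 10411 genes. Data were also simulated with normally distributed noise, with changes of 1.5, 2 and 4 times set in 67, 67 and 66 of 10411 genes. There the HP test recovered 23.9%, 65.7% and 81.8% of them, with 7 false calls. These rates belong to that setting, which had fewer changed genes than the 1419 called here. A gene without a call may thus still have changed. The comparison, its 45 lists and its tests were chosen with earlier results of these data known. Named genes were, among called genes, the 40 largest changes and 40 smallest p-values in each direction, the 8 smallest p-values of each list, the markers, and the 10 smallest p-values of the interaction. Hpcal1, Atp2b2, Ppp3cb, Calu, Camk2b, Camk2g, Itgb1, Tns1, Plin3, Fabp5, Ech1 and Eci1 are list members chosen after their values were seen. One list and its members are not reported here. Motif shares are descriptions. The 23 alternatives are given in the closing section. Array number limits precision.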

Additional observations from a re-analysis of the deposited data

How the results depend on the processing

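The count of genes called in HP, 1419 (731 higher, 688 lower), was 816 (425 and 391) when the actin ratio was a covariate. It was 313 (182 and 131) without HP sham arrays 1 and 3, where the lone HP sham array is assumed to vary like the other groups. Leaving out 1 array at a time gave 846 to 1489 genes, 444 to 788 higher and 394 to 701 lower, and the lowest came without an HP array. The other alternatives (HP arrays alone, dimmest 25% left out, quantile normalization, median centring, pseudocounts of 16 and 32, the probe sets of a gene averaged, and trended robust variance) gave 998 to 1610 genes. With median centring the balance turned, to 587 higher and 731 lower. The replicate numbers did not pair the arrays (correlations of same-numbered deviations 0.009, -0.043 and 0.041). With the replicate block 1115 genes were called, 1081 of them among the 1419. Genes whose effect differed between HP and LP numbered 0, and 0 to 2 when 1 array was left out: Cks2 and Fosl2 without HP sham array 3, Prr35 and Serpinb7 without HP SNL array 2, and Rrs1 without HP SNL array 3. With the actin covariate there was 1, C8h11orf65. The cause of these shifts was not tested. Of 396 called genes among the 563 named ones, 138 kept the call under all 23 alternatives, 277 under the 12 that leave out 1 array, and 133 lost it with the actin covariate. None of the 396 changed sign. In dim genes the scatter of replicates limits what can be called.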

Other observations

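Several dim genes outside the lists had large, firm differences in HP. Tgfb1, the cytokine TGF-beta 1, went from 35.8 ± 14.2 to 212 ± 62.2 (2.58 ± 0.41, log2 difference), and Lilrb4, an inhibitory receptor of myeloid cells, from 32.6 ± 1.32 to 161 ± 54.8 (2.20 ± 0.38). Gpsm3, a G protein modulator of immune cells, went from 75.8 ± 26.5 to 287 ± 69.9 (1.94 ± 0.37). Ung, the uracil glycosylase of DNA repair, went from 64.6 ± 38.3 to 224 ± 18.4 (1.93 ± 0.35), with sham array 2 at 108.6 and the others at 39.3 and 45.8. Cryba2, a crystallin of the lens, went from 59.0 ± 22.4 to 230.1 ± 81.9 (1.95 ± 0.30). In each of these 5 genes the 3 SNL arrays lay above the 3 sham arrays, while 34.3% of all genes had no overlap. The word firm does not cover the fit without HP sham arrays 1 and 3. There the differences were 2.12 for Tgfb1, 2.14 for Lilrb4, 1.41 for Gpsm3, 1.04 for Ung and 1.38 for Cryba2.

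On the falling side, Ifitm10, of the interferon-induced membrane protein family, went from 653 ± 59.0 to 134 ± 93.7 (-2.53 ± 0.49), with SNL values of 235.8, 51.0 and 116.0. Isyna1, which makes inositol phosphate from glucose phosphate, went from 208 ± 48.0 to 49.6 ± 28.8 (-2.16 ± 0.42). Lrrc49, a leucine-rich repeat protein, was brighter and went from 978 ± 104 to 253 ± 56.3 (-1.96 ± 0.21). Hba-a3, an alpha globin, was at 1919.4, 1817.8 and 1649.1 after sham and 2487.0, 2961.9 and 3176.6 after SNL (0.67 ± 0.11), beside the red blood cell marker sums given above. In LP the difference of Hba-a3 was -0.15 ± 0.11, but the HP minus LP difference of the ligation effect passed for 0 of 10411 genes.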
